A study of Mus musculus with 7 samples.

Results

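The peaks described here are all 66091 autosomal peaks of a pooled Rad21 ChIP-seq list from mouse liver, out of 67369 Rad21 peaks on all chromosomes and out of 144052 peaks in the Rad21 and CTCF lists together. Every autosomal row of the Rad21 list was kept, with no limit on strength, and each summit was placed relative to the genes of the mm9 genome. ChIP-seq had been performed on livers of male mice of the outbred stock Crl:CD1(ICR), 8 weeks of age, with no treatment or genetic change named in the labels, in 3 libraries with an antibody to Rad21 and in 4 libraries with an antibody to CTCF. The authors merged the reads of each factor before calling peaks, so each peak has 1 value and no spread between animals can be given. Whole liver was used, and a site bound in few cells cannot be told apart from a site bound weakly in many.

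Rad21 is the subunit that closes the ring of cohesin, the complex that holds DNA strands together and extrudes chromatin loops. Cohesin is halted where CTCF, a zinc finger protein, sits on its motif, and most strong cohesin sites therefore coincide with CTCF. Cohesin is also found away from CTCF, at promoters and enhancers of active genes, and such sites are known as cohesin-non-CTCF (CNC) sites. The liver consists mostly of hepatocytes, which make plasma proteins, bile acids and glucose.

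The strength of a peak is given in 3 ways. The score is the authors' MACS2 score, 10 times the −log10 q-value. The fold is the deposited ratio of fragments at the summit to the local background. The number of fragments at the summit was worked out from the fold and the −log10 p-value. The 66091 peaks had a median score of 164 with a range from 16 to 15041, a median fold of 4.92 and a median of 47 fragments at the summit, with quartiles of 30 and 87. A CTCF peak shared at least 1 bp with 77.1% of them. Peaks with CTCF had a median score of 246 and a median of 58 fragments, against a score of 65 and 29 fragments at the 15118 peaks without CTCF.

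Rad21 was concentrated at the starts of genes. A promoter summit is here a summit within 1 kb of any annotated transcript start of a protein-coding gene. There were 15654 such summits, 23.7% of all (95% Wilson interval 23.4 to 24%), while these windows make up 3.18% of the sequenced autosomal bases. The density was 206 summits per Mb in promoter windows, 47.9 in coding exons, 36.8 in other exons, 27.8 in introns and 17.5 between genes, against 27.6 over the autosomes, so that introns stood at the average. Gene bodies, from the first to the last base of a gene, held 57.1% of the summits (56.7 to 57.4%) and 39.6% of the bases, and 12189 of these 37719 summits were promoter summits. Intervals cover counting error only. The median summit lay 11393 bp from the nearest start, and 9.60% lay more than 100 kb away.

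**Figure D1:**
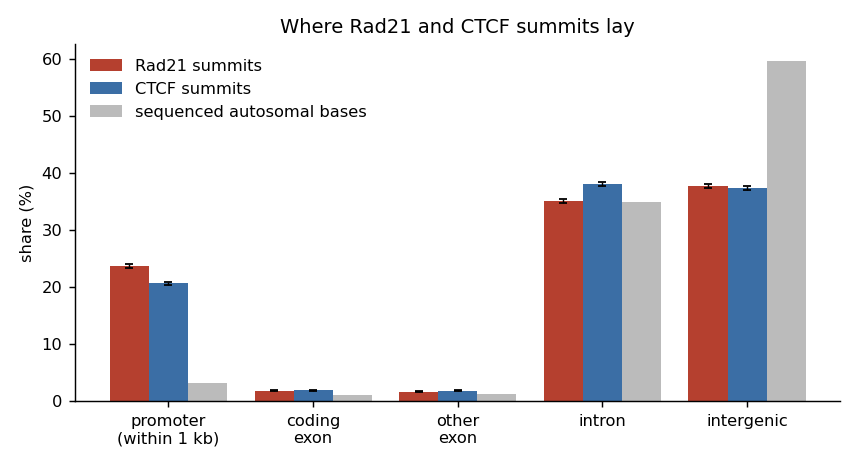
Share of Rad21 summits, of CTCF summits and of sequenced autosomal bases in each kind of location, with 95% Wilson intervals on the summits. Promoter windows held 23.7% of Rad21 summits, 20.7% of CTCF summits and 3.18% of the bases, whereas intergenic sequence held 37.7% of Rad21 summits and 59.6% of the bases.

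The strongest Rad21 peaks were mostly not at promoters. When the peaks were ranked by score into 10 deciles of equal size, promoter summits made up 15.7% of decile 1 (scores up to 47), rose to 36.1% in decile 7 (scores from 236 to 364) and fell to 12.8% in decile 10 (scores of 1309 and more). Intergenic summits rose from 35.0% of decile 1 to 52.7% of decile 10. The median score was 183 at promoters, 130 in introns and 189 between genes, and by fold the order was 4.87, 4.49 and 5.55. Promoter peaks had the highest median number of fragments, 54, against 42 in introns and 48 between genes. Among peaks with CTCF the order was different, with 58 fragments at promoters and 63 between genes, over a local background of 10.1 and 7.44 fragments. By autosome, the promoter median score was above the intergenic one on 9 of 19. The share that overlapped CTCF was 86.4% at promoters, 71.6% in introns and 76.5% between genes.

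CTCF and Rad21 shared their gene neighbourhoods closely, with a slightly larger part of the Rad21 list at promoters. Of the 74980 autosomal CTCF summits, 20.7% lay within 1 kb of a start (20.4 to 21.0%), 3.01 percentage points below Rad21 (95% Newcombe interval 2.58 to 3.45). The size of this difference depended on the settings, with 1.21 points for a window of 5 kb, 1.92 for peaks with a fold of at least 5 and 5.70 for the 30000 strongest peaks of each factor. The Rad21 share was the higher one on 19 of 19 autosomes, by 1.52 to 4.84 points. The lists differ in antibody and in the number of libraries, and their depth was not compared. The part of these in the difference was not tested. There is 1 pooled list per factor, so no test across animals exists.

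Around starts, Rad21 summits were most frequent just downstream. Of the promoter summits, 9859 lay at or downstream of the nearest start and 5795 upstream, and 64.1% lay within 250 bp. The fullest interval of 100 bp ran from 100 to 200 bp downstream, with 3436 Rad21 summits, while the fullest interval for CTCF was the one before it, with 2933 CTCF summits. The median position was 79 bp downstream for Rad21 and 44 bp downstream for CTCF. At 13425 promoter peaks whose Rad21 and CTCF summits lay at different bases, the Rad21 summit was on the downstream side in 54.8% (54.0 to 55.6%). In introns that share was 49.5% (48.8 to 50.3%), and between genes, relative to the nearest start, 51.5% (50.7 to 52.2%). The summits of overlapping peaks lay a median of 57 bp apart at promoters, 33 bp apart in introns and 30 bp apart between genes. Rad21 peaks without CTCF were spread more widely around starts, with 47.2% of their 2132 promoter summits within 250 bp.

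**Figure D2:**
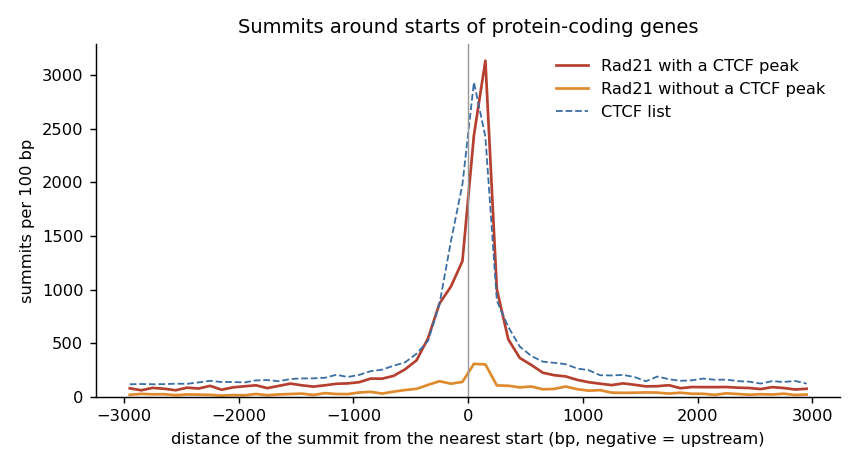
Number of summits per 100 bp against the distance from the nearest start of a protein-coding gene, negative upstream, for Rad21 peaks with and without a CTCF peak and for the CTCF list. Rad21 peaks with CTCF reached 3134 summits between 100 and 200 bp downstream and Rad21 peaks without CTCF 307 between 0 and 100 bp downstream.

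The core of the CTCF motif shows how sequence differs between these locations. Both strands of each summit base and the 100 bases on each side were searched for CCNNNAGNNGGC, and no other motif was searched. It was present at 26.1% of Rad21 summits, compared with 2.11% of 1190868 windows of the same length tiled along the autosomes. Among Rad21 summits it was present at 32.7% of those with CTCF and at 4.04% of those without. Between genes the share was 31.2% (30.6 to 31.8%) and at promoters 15.4% (14.9 to 16%), against 7.36% of windows centred on the 5′ ends of all genes. GC content was a median of 63.7% at promoter summits and 49.8% at intergenic summits. The score decile with the fewest cores was decile 1, with 9.15%, and that with the most was decile 10, with 52.3%.

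The authors' list of CTCF sites, sorted into classes, gave promoters and distant peaks a different makeup. Sites of this list overlapped 11986 promoter peaks and 16096 intergenic peaks of Rad21. Anchors of topologically associating domains, the large self-interacting blocks of the genome, were 4.37% of all promoter peaks and 10.9% of all intergenic peaks. Anchors of loops inside such domains were 7.84% and 16.4%. The list also marks overlap with public liver data on the cohesin subunits Stag1 and Stag2, which are alternatives to each other, and on topoisomerase Top2b, with the order of these columns taken from the study's own listing. Of the overlapped sites, Stag1 was marked at 65.4% for promoter peaks and at 88.8% for intergenic peaks, whereas Stag2 was marked at 97% and 96.8%. Top2b was marked at 74.8% and 65.3%. These marks come from other samples with their own depth, and the part of peak strength in them was not tested.

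The following sequences of the mm9 reference hold the core nearest to the summit, where a core was present. They come from the strongest promoter peaks, the strongest peaks inside genes and the peak farthest from a start among the strongest 10%. They are shown because these peaks are named below, the first 8 for their strength and the last for its distance from any gene. Capitals mark the core, which is read 5′ to 3′ on the strand named. No core lay within 100 bases of the summit at the promoter peaks of Dhx8, Abca14, Snai1, Mapk14, Plcb1 and AI413582. The same held for the body peaks of Gm20388, Lif, Kcnq1, AI480653 and Gstm3 and for the far peaks nearest to Myc and Diap3. Other named peaks, among them that of Synpo, which had a core, have no line here.
Ick promoter (chr9:77960973-77961032, plus strand): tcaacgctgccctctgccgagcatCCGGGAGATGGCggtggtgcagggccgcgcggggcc
Irak2 promoter (chr6:113588363-113588422, minus strand): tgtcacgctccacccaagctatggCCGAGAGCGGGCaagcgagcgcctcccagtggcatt
Snx18 promoter (chr13:114408886-114408945, minus strand): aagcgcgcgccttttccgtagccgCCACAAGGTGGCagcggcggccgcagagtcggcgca
Acbd4 promoter (chr11:102964120-102964149, plus strand): cgtgggtttCCACCAGGGGGCgcgaggact
Sfpi1 coding exon (chr2:90955389-90955448, plus strand): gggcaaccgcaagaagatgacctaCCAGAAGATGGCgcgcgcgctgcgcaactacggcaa
Myo18a intron (chr11:77606828-77606887, minus strand): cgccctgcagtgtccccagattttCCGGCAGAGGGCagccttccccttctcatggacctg
Ren1 intron (chr1:135250247-135250306, minus strand): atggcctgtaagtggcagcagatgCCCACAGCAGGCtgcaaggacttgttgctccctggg
Dnahc8 intron (chr17:30818748-30818807, minus strand): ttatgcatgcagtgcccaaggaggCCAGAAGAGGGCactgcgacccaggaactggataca
Intergenic, nearest gene Chrm3 (chr13:10795619-10795678, plus strand): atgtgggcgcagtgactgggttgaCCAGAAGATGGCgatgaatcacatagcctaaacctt
The middle of the core lay 12 to 38 bases from the Rad21 summit in all 9 of these windows, which were chosen for holding a core. Each window held 1 core.

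Of 21418 autosomal protein-coding genes, 11466 (53.5%) had a Rad21 summit within 1 kb of a start, 12815 (59.8%) had one in the body, and 4975 (23.2%) had none in the body or within 10 kb of it. Both factors had a promoter summit at 51.3% of genes, Rad21 alone at 2.23%, CTCF alone at 4.80% and neither at 41.7%. A promoter summit among the strongest 10% of all Rad21 peaks (a score of at least 1309) was present at 876 genes, 4.09%. At 579 of the 11466 genes with promoter summits, 5.05%, every promoter summit lacked CTCF. Some summits served several genes, since 10.8% of promoter summits lay within 1 kb of starts of at least 2 genes. Only reads with 1 position were kept, and the part of repeated sequence in the genes without a summit was not tested. As a measure of repeated sequence, 20 windows of 50 bases were taken from each gene and its 10 kb flanks and counted in the whole reference. Among the 17222 genes with at least 90% of these windows at 1 place, 14.6% had no Rad21 summit in the body or within 10 kb, while among the 903 genes with under 50% it was 96.9%.

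Genes with CpG-rich promoters carried Rad21 far more often than genes with CpG-poor ones. CpG-rich promoters, or CpG islands, are typical of genes that are active in many tissues. Genes were ranked by the ratio of observed to expected CpG in the 500 bp on each side of the 5′ end and divided into 10 deciles. A Rad21 summit within 1 kb of a start was present at 6.77% of genes in decile 1 (5.78 to 7.91%), at 52.4% in decile 5 and at 88.6% in decile 10 (87.2 to 89.9%). CTCF rose alongside, from 6.86% in decile 1 to 92.2% in decile 10. Genes with no Rad21 summit in the body or within 10 kb fell from 73.3% of decile 1 to 3.08% of decile 10. Where a promoter summit was present, its lack of CTCF was more common at CpG-poor genes, 20% in decile 1 and 1.42% in decile 10. The strength of the best promoter summit varied less, from a median score of 164 in decile 1 to 289 in decile 10.

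**Figure D3:**
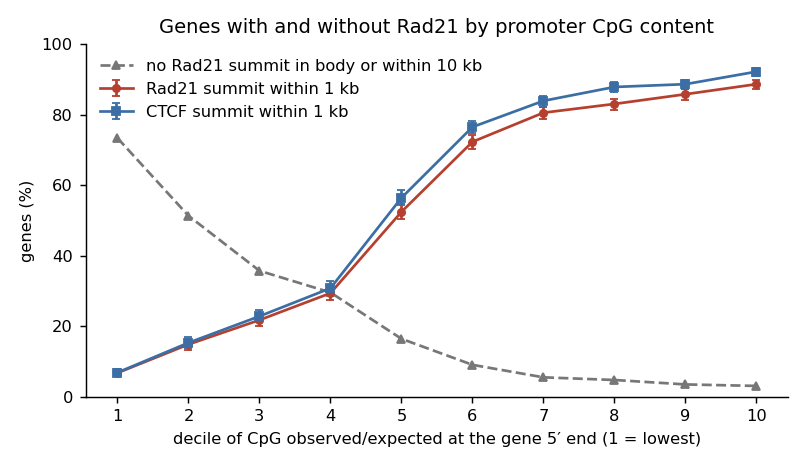
Share of genes with a Rad21 or a CTCF summit within 1 kb of a start, with 95% Wilson intervals, and share with no Rad21 summit in the body or within 10 kb, by decile of CpG observed over expected at the 5′ end. The Rad21 share ran from 6.77% in decile 1 to 88.6% in decile 10.

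The 10 strongest promoter summits were all shared with CTCF and lay just upstream of a start. Ick, a protein kinase of cilia, had the highest promoter summit of all, with a score of 13675, a fold of 27.7 and 1328 fragments at chr9:77960765-77961459, 13 bp upstream of a start. Irak2, a kinase of interleukin-1 receptor signalling, followed with a score of 11681 and 1150 fragments at chr6:113588125-113588837. Dhx8, an RNA helicase of the spliceosome, had a score of 11397, and Abca14, a member of the ABC transporter family, one of 11124. Snai1, the transcription factor Snail, reached 10729 with a single promoter summit and none in its body. Snx18, a sorting nexin of endosomes, Acbd4, an acyl-CoA binding protein, and Mapk14, the p38 alpha kinase, had scores of 10158, 10119 and 10022. Plcb1, a phospholipase C, and AI413582 completed the 10 strongest with 8833 and 8431. All 10 summits overlapped a CTCF peak, lay within 215 bp of a start on its upstream side and had a fold between 19.9 and 32.8. The authors' list of CTCF sites classed 3 of the 10 as anchors of topologically associating domains, 5 as anchors of loops within them and 2 as other cohesin-and-CTCF sites.

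Inside genes, more than 1 kb from any start, the strongest peak lay in Sfpi1, the older name of the gene of PU.1, a transcription factor of myeloid and B cells. It had a score of 12635, a fold of 29.5 and 1194 fragments at chr2:90955120-90955716, in a coding exon. Sfpi1 had no promoter summit. Strong peaks followed in Myo18a (9342), a myosin of the Golgi, in Lif (8989), a cytokine, and in Kcnq1 (8925), an imprinted potassium channel gene with 15 summits in the body and none at a start. Ren1, the gene of renin, had a single summit in its body, with a score of 8140. Synpo, an actin-binding protein gene, and Dnahc8, a dynein heavy chain gene, had scores of 7875 and 7871. AI480653 and Gstm3, a glutathione transferase gene, had 7382 and 7377. The model Gm20388, which holds 72 other protein-coding genes, contained a peak of 9440. All of these peaks overlapped CTCF.

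Promoter summits without CTCF were much weaker. The 10 highest folds among genes whose promoter summits all lacked CTCF lay between 6.12 and 7.41. Chchd2, a mitochondrial protein gene, had a fold of 7.41, a score of 297 and 56 fragments at chr5:130362695-130363189. Klhl17, an actin-binding kelch gene, had a score of 487 and 102 fragments, Mmp19, a matrix metalloproteinase gene, a score of 341, and Eif2d, a translation initiation gene, one of 342. Rnf25 and Stk36 shared the same summit, with a score of 229. Rapgef4, an exchange factor that answers to cyclic AMP, had 366, 9530008L14Rik 444, Fam49a 182 and Ppapdc3 171. None of the 10 held the CTCF core within 100 bp of the summit. Over all promoter peaks without CTCF the median fold was 3.13, with 37 fragments over a background of 10.9.

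Genes with many annotated starts could hold a separate Rad21 summit at several of them. Cic, a transcriptional repressor of growth factor signalling, and Kdm2b, a histone demethylase that binds CpG islands, each had 8 summits within 1 kb of starts, over 15 and 22 annotated starts. Ablim1, Anp32a, Dnmt3a, Eif4g3, Itsn1, Plxnb2, Sept9 and Synj2 each had 7. Sept9, a septin gene, also had 27 summits in the body and a best promoter score of 3663. At least 3 such summits were present at 1041 genes (4.86%).

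The number of summits in a gene rose with its length, but long genes had fewer per base. The median was 0 in genes under 5 kb, 2 in genes of 20 to 50 kb and 5 in genes of 200 kb and more, while the density fell from 12 per 100 kb in the first group to 2.07 in the last. Across the 21418 genes, Spearman's correlation of length with number was 0.64, and that of Rad21 with CTCF numbers 0.88. Genes are not independent replicates, and long genes offer more bases to both factors.

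Rad21 was most abundant in Gm20388, with 383 summits, and in Fgfr2, a fibroblast growth factor receptor gene, with 125, but these models of 4434882 and 3009069 bp contain 72 and 31 other protein-coding genes. Arfip1, with 51 summits, contains 5. Of the models that contain fewer than 3 others, the fullest were Arhgap26 (54 summits), a regulator of small GTPases, Rora (53), a nuclear receptor of the circadian clock, and Zbtb20 (47), a repressor of the fetal liver gene Afp. Prkce (46), a protein kinase C, Rad51l1 (43), a DNA repair gene, Sox5 (43), a transcription factor, and Nav2 (42), a neuron navigator gene, came next. CTCF was absent from 24 of the 47 summits in Zbtb20, from 19 of the 46 in Prkce and from 14 of the 53 in Rora, while 76.6% of all summits in gene bodies overlapped CTCF. The strongest summits in these genes scored 7070 in Arhgap26, 1242 in Rora and 3358 in Zbtb20.

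Among genes of at least 50 kb, the 10 with the most summits per base were between 52057 and 109193 bp long. Klf13, a Krüppel-like transcription factor gene, had 14 summits in 52565 bp, 26.6 per 100 kb. Aqp9, the glycerol channel of hepatocytes, had 15 summits or 25.9 per 100 kb, of which 6 lacked CTCF. Scarb1, the receptor that takes up cholesterol from high density lipoprotein, had 21.9 per 100 kb, and Ppara, the nuclear receptor that drives fatty acid oxidation in fasting, 20.6. Mthfd1, a folate cycle enzyme, had 20.1, and Stat5b, the transcription factor through which growth hormone acts on liver, had 14 summits in 69994 bp. The remaining 4 were Zcchc24 (22.7), Shb (22.0), Fam176a (21.1) and Gng7 (21.1). Over all genes the density was 4.02 per 100 kb. The strongest summit of Ppara scored 280 and that of Aqp9 630, whereas Gng7 held one of 4017.

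**Figure D4:**
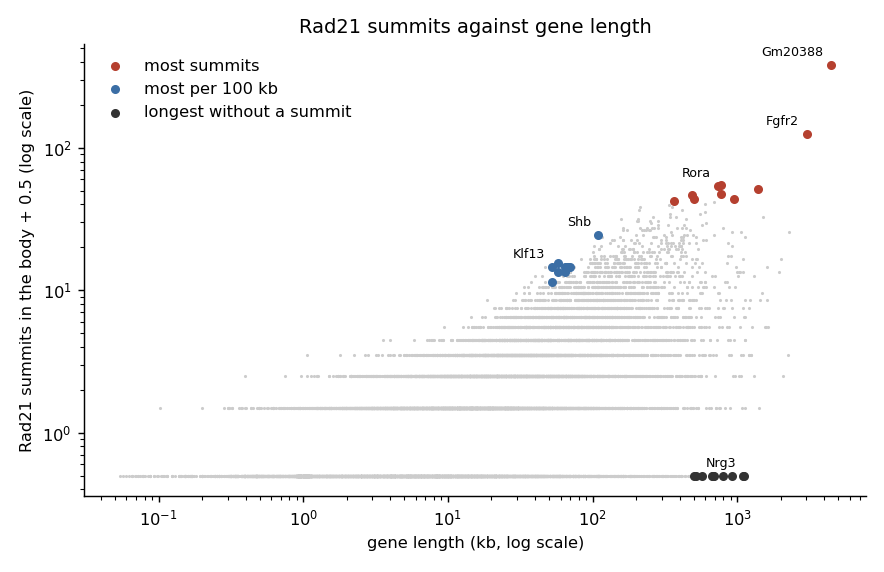
Rad21 summits in the gene body plus 0.5 against gene length for 21418 protein-coding genes, both on log axes, with the 10 genes with the most summits, the 10 with the most per 100 kb among genes of at least 50 kb, and the 10 longest with no summit. Gm20388 stood at 383 summits and Klf13 at 14, while Nrg3, of 1104239 bp, had none.

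Few long genes had no Rad21 summit in the body or within 10 kb, 69 of 909 genes of 200 kb and more (7.59%) against 23.2% of all genes. The 10 longest of them were as follows. Nrg3, a neuregulin, was 1104239 bp long, Dcc, the netrin receptor, 1092332 bp, Cdh18, a cadherin, 925397 bp, and Lrrtm4, a synaptic adhesion protein, 791267 bp. Grik2 and Gabrg3, receptors of the transmitters glutamate and GABA, were 689307 and 670724 bp long. Galnt13 (681993 bp), Unc5d (572622 bp), Skint5 (521613 bp) and Edil3 (501752 bp) completed the 10. CTCF had between 1 and 4 summits in the bodies of 8 of the 10 and none in Skint5 and Edil3. Between 80.0 and 100% of the 50-base windows of these genes were at 1 place of the reference, against 90.2% over all genes.

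Neighbouring genes without Rad21 formed long runs. There were 85 runs of at least 10 neighbouring genes with no summit in the body or within 10 kb, and they held 2170 genes. The 5 longest were a run of 118 genes on chromosome 14 over 5.45 Mb, of which 114 carry predicted-gene (Gm) names, a run of 106 genes on chromosome 7 over 4.25 Mb with 64 vomeronasal receptor genes, a run of 94 genes on chromosome 2 over 2.23 Mb with 93 olfactory receptor genes, a run of 75 genes on chromosome 14 over 3.43 Mb with 62 Gm genes, and a run of 66 genes on chromosome 9 over 1.78 Mb with 65 olfactory receptor genes. The 2 olfactory runs had 85.4 and 89.8% of their 50-base windows at 1 place. The other 3 had 7.69, 17.5 and 22.8%, and the part of read placement in these runs was not tested.

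The gene lists were compiled by symbol with earlier results of these data known, and their counts stand against 53.5% of all genes with a promoter summit and 23.2% with none in the body or within 10 kb. The lists also differed in CpG content, and the part of this in their shares was not tested. Olfactory and vomeronasal receptor genes held almost no Rad21. Of 1081 olfactory receptor genes, 2 had a promoter summit (0.185%), Olfr15 with a score of 499 and Olfr1161 with 376, and 1003 had none in the body or within 10 kb. Of the 611 members with at least 90% of windows at 1 place, 556 had none. Of 319 vomeronasal receptor genes, 310 had none, but only 63.1% of their windows were at 1 place. Of the 99 members with at least 90% of windows at 1 place, 96 had none. The keratin-associated protein genes, which act in hair, had no promoter summit in 46 members, the taste receptors 1 in 38 (Tas1r1, score 913), with 30 of the 38 lacking Rad21 within 10 kb and a body summit of 3389 in Tas1r2, the defensins 1 in 53 (Defb21) and the 7 alpha and beta globin genes none. Of 46 keratin genes 4 had one, Krt8 (1742), Krt78 (352), Krt18 (141) and Krt23 (50). Krt8 and Krt18 are the keratins of hepatocytes. The 21 major urinary protein genes, which male mouse liver transcribes strongly, had no summit at a start or in the body, but only 30.9% of their windows were at 1 place.

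In the lists of ribosomal, proteasome and complex I genes most members had promoter summits, of a median strength near or below that of all genes. Such summits were present at 64 of 76 cytosolic ribosomal protein genes (84.2%), 36 of 40 proteasome subunit genes (90%) and 27 of 35 complex I subunit genes (77.1%). In the same order the lists had median CpG ratios of 0.812, 0.735 and 0.710. Of all genes, 85.8% had a promoter summit in CpG decile 9 and 80.5% in decile 7, which hold these ratios. The median best promoter score was 158.5 in the ribosomal, 240.5 in the proteasome and 272 in the complex I list, against 261 over all genes with a promoter summit. Among the strongest members were Psmc4 (5145), Psmd11 (2640) and Psmc6 (724) of the proteasome, Rpl13a (3417) and Rpl11 (2011) of the ribosome, and Ndufb7 (1219), Ndufv1 (1068) and Ndufc1 (926) of complex I. Replication-dependent histone genes had one at 14 of 67 (20.9%), with a median CpG ratio of 0.88 at their promoters and a median length of 530 bp, where 24.2% of all genes under 5 kb had one. CTCF had a promoter summit at 31 of the same 67. Zinc finger Zfp genes stood at 230 of 337 (68.2%) and solute carriers at 213 of 358 (59.5%), led by Slc36a1 with a score of 8123. CpG deciles 6 and 5 of all genes, which hold the median CpG ratios of these lists (0.61 and 0.55), had 72.3 and 52.4%.

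In 3 lists of liver metabolism nearly every gene had a promoter summit, against 53.5% of all genes. Their median CpG ratios were 0.73 in the cholesterol, 0.68 in the fatty acid and 0.42 in the urea cycle list. Of all genes in CpG decile 7, which holds the cholesterol and fatty acid ratios, 80.5% had a promoter summit. In decile 5, which holds the urea cycle ratio, it was 52.4%. All 23 cholesterol genes found had a promoter summit, led by Dhcr7 (2095) and Lss (1581), enzymes of the late pathway, and Scap (1330), the escort of the sterol-regulated transcription factors. All 15 genes of the urea cycle and gluconeogenesis had one too, led by Asl (1131) and Pcx (946). Cps1, the entry enzyme of the urea cycle, had 82 and G6pc, the last enzyme of glucose output, 81. In fatty acid and triglyceride synthesis 19 of 21 had a promoter summit, with Acaca (2601), which makes malonyl-CoA, Fads1 (2135), a desaturase, and Mlxipl (1848), the carbohydrate-responsive transcription factor, the strongest. Fasn had a score of 743 and Thrsp 165. None of the members of these 3 lists lacked a summit in the body or within 10 kb.

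Among 16 hepatocyte transcription factor genes, 13 had a promoter summit, against 53.5% of all genes, and none lacked Rad21 within 10 kb. Their median CpG ratio was 0.58, and of all genes in CpG decile 6, which holds it, 72.3% had a promoter summit. Their bodies together held 18.4 summits per 100 kb, against 4.02 over all genes and 17.9 in the ribosomal protein genes, which are short. The number in a body ran from 0 to 23. Foxa3 had the strongest promoter summit, with a score of 4804, followed by Tbx3 (967) and Cebpb (585). Hnf4a, a central nuclear receptor of the hepatocyte, had 12 summits in the body, the strongest of 1653, and Nr5a2, a receptor that controls bile acid synthesis, had 23. Cebpa and Foxa2 had no summit at a start or in the body, but 5 and 3 with the 10 kb flanks. Of 20 metabolic nuclear receptor genes, 17 had a promoter summit, led by Ppard (3995), Nr1h3 (2499) and Nr3c1 (2330), and Thrb held 32 summits in its body. Of 18 clock genes 17 had one, led by Npas2 (1719), Per2 (1074) and Cry2 (806), and Bhlhe41 had no promoter summit.

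The growth hormone pathway, which sets sex differences in mouse liver, carried promoter summits with scores from 52 to 2026. They were present at 15 of 16 members, and 5 of the 16 reached the strongest 10% of all peaks, a level that 4.09% of all genes reached. These 5 were Socs2 (2026) and Socs3 (1394), inhibitors of cytokine signalling, Cux2 (1910), a repressor expressed in female liver, and Prlr (1689) and Ghr (1436), the receptors of prolactin and growth hormone. Stat5a had a score of 711 and Stat5b 493. Bcl6 (190), Igfals (121), Cish (95) and Igfbp1 (63) lay below 261, the median of all genes with a promoter summit. The strongest 10% was also reached at 4 of 17 genes of the CTCF and cohesin machinery and 3 of 20 metabolic nuclear receptors. It was reached at 3 of 21 fatty acid, 3 of 23 cholesterol, 1 of 18 clock, 1 of 16 hepatocyte transcription factor and 0 of 15 urea cycle genes. Igf1, the main growth hormone target, had a weak promoter summit of 52 without CTCF and 10 summits in the body. Igfbp3 had no promoter summit and a body summit of 2206.

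In 4 lists of secreted liver proteins and conjugation enzymes, promoter summits had a median score below the 261 of all genes and lacked CTCF at a larger share of genes. In the complement and coagulation list 31 of 41 genes had a promoter summit, and at 8 of the 31 (25.8%) every promoter summit lacked CTCF. The same held for 4 of 11 apolipoprotein genes (36.4%), for 4 of 14 acute phase genes (28.6%) and for 13 of 38 conjugation enzyme genes (34.2%), against 5.05% over all genes. These 4 lists had median CpG ratios between 0.14 and 0.24, where the CpG deciles 2 and 3 of all genes had 15.4 and 17.4%. Their median best promoter scores were 132, 176, 113 and 103 in the same order. Single strong summits stood out in them. F3, the gene of tissue factor, had 4091, Gstm1 4106, Sult1d1 3057, Saa3 2058 and Apob 1826. Apoa1, the main protein of high density lipoprotein, had a promoter summit of 176 and a fold of 2.89. Alb had no promoter summit and 2 weak ones in the body, both without CTCF, the stronger of 38. Its neighbour Afp, which is silenced after birth, held 2 in the body, both with CTCF, the stronger of 1498. With the 10 kb flanks, Alb had 5 summits and Afp 6. None of the 4 albumin family members lacked Rad21 within 10 kb. Of the 3 fibrinogen genes, Fga had a promoter summit of 334, and neither it nor the 2 albumin family genes with promoter summits lacked CTCF there. Of 22 Serpina genes, 3 had promoter summits, all without CTCF, and 7 had none within 10 kb, with 82.0% of windows at 1 place. Cytochrome P450 genes had a promoter summit at 36 of 91 (39.6%). Cyp17a1, an enzyme of steroid synthesis, had the strongest with 5751, followed by Cyp1b1 (868) and Cyp4v3 (756). At 8 of the 36 (22.2%) every promoter summit lacked CTCF, and the median best promoter score was 174. Shares above 5.05% were also found in the histone list, 3 of 14 (21.4%), and in the urea cycle and growth hormone lists, 20% each. In the cholesterol list the share was 4.35%, and in the clock list 0%.

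**Figure D5:**
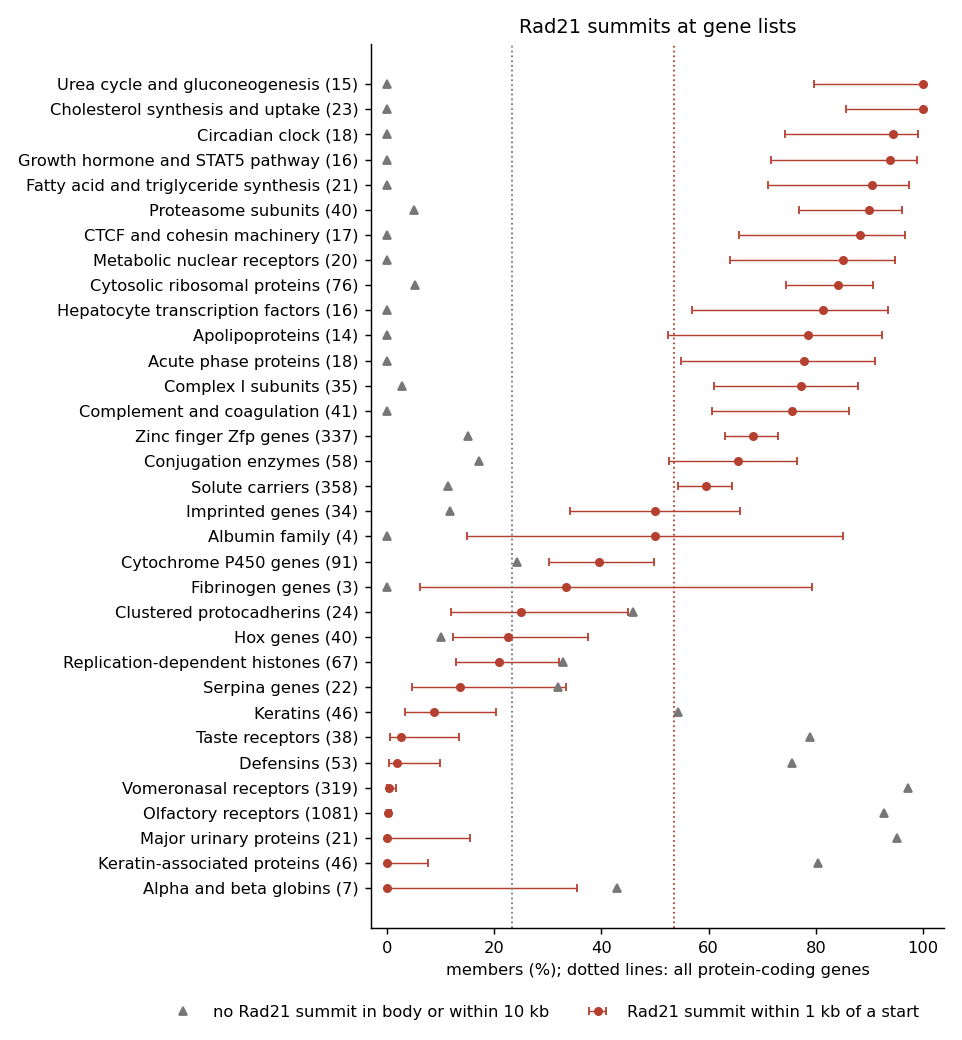
Share of members with a Rad21 summit within 1 kb of a start, with 95% Wilson intervals, and share with none in the body or within 10 kb, for 33 gene lists with the number of members found. Dotted lines give all protein-coding genes, 53.5 and 23.2%. The lists ran from 0% in keratin-associated protein, major urinary protein and globin genes to 100% in the cholesterol and urea cycle lists.

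Counts in 3 groups known for regulation by CTCF or imprinting stand against 53.5% of all genes and 24.2% of genes under 5 kb, since the median Hox and clustered protocadherin genes are shorter than 5 kb. Of 40 Hox genes, 9 had a promoter summit, led by Hoxa7 (5957), Hoxc5 (2287) and Hoxa5 (2150), and 4 had none within 10 kb. Of 24 clustered protocadherin genes, 6 had a promoter summit of Rad21, while 15 had one of CTCF. Rad21 was absent from the body and the 10 kb flanks of 11, and CTCF from those of 1. Genes are counted by annotated model, and Pcdha11, of 257373 bp, contains Pcdha3. Pcdhgc5, a model of 167539 bp with 5 summits at starts, had a best score of 2065. Pcdhb14, the third in strength, had 80. Among 34 imprinted genes, 17 had a promoter summit (34.1 to 65.9%), led by Commd1 (2230), Meg3 (2018) and Grb10 (1414), and Grb10 and Kcnq1 held body summits of 5944 and 8925. These genes include the RNA genes H19, Meg3 and Airn, while the 53.5% covers protein-coding genes only. Dlk1, Ndn, Mkrn3 and Usp29 had none within 10 kb. The genes of the cohesin and CTCF machinery themselves had a promoter summit in 15 of 17 cases, led by Stag1 (5142), Pds5b (3356) and Smc3 (3030). Rad21 itself had 1 summit, with a score of 65, and Ctcf a score of 868.

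Marker genes of cell types were compared as a check of the tissue, although Rad21 binding does not identify a cell type. Hepatocyte markers had a promoter summit at 7 of 11 (35.4 to 84.8%), near the 53.5% of all genes, with Hnf4a (236), Ttr (227) and Hpd (203) the strongest, and none lacked Rad21 within 10 kb. Markers of Kupffer cells and other leukocytes had 0 of 8 at promoters and 3 of 8 in the body, with 2 of 8 lacking Rad21 within 10 kb, and this count leaves out Spi1, which the annotation holds as Sfpi1 with the strong body summit given above. Cholangiocyte markers had 1 of 6 at promoters (Sox9, 438), with none within 10 kb of Krt7, Krt19, Epcam and Cftr. Endothelial and stellate markers had 2 of 6 and 3 of 6, with Col1a1 at 4961, and none of them lacked Rad21 within 10 kb either. Markers of neurons and of striated muscle, which are not liver cells, had 4 of 10 and 1 of 10 at promoters, and 8 of 10 and 6 of 10 in the body. Rbfox3, a splicing factor of neurons, had 17 summits in its body and a promoter score of 632.

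Away from genes, the 3 most distant summits among the strongest 10% of peaks lay between 785158 and 917307 bp from the nearest start. They were chr13:10795440-10795866, nearest to Chrm3 (score 1417, 155 fragments), chr15:62634240-62634764, nearest to Myc (1477, 175 fragments), and chr14:86707509-86707962, nearest to Diap3 (1762, 196 fragments). All overlapped a CTCF peak, and the authors' list classed the summit near Myc as a domain anchor. By nearest start, Lpp collected 65 summits, Arid1b 58, Sox5 56, Zmiz1 55 and Rreb1 53, while 5348 of 21418 genes were nearest to none. These 5 genes were chosen after their values were seen.

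Gene-dense autosomes had more Rad21. The density ran from 20.9 summits per sequenced Mb on chromosome 14 to 40.5 on chromosome 11, and over the 19 autosomes Spearman's correlation with the density of protein-coding genes was 0.87. Chromosome 14 also had the largest share of genes without Rad21 in the body or within 10 kb, 40.6%, and chromosome 15 the smallest, 13.3%. Among other types of gene, long intergenic non-coding RNA genes came nearest to protein-coding ones. Of 1232 of these, 50.2% had a promoter summit (47.4 to 53.0%), against 22.0% of 2437 processed transcript genes, 9.74% of 1468 microRNA genes and 4.37% of 4055 pseudogenes.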

How the data were processed

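Livers of male CD-1 mice were processed for ChIP-seq by the authors. Per the study's methods, they merged reads per factor (Rad21 3 libraries, CTCF 4), mapped them to mm9 with Bowtie2 keeping unique positions, called peaks with MACS2, and removed blacklisted regions and peaks of PCR duplicates. The deposited score (from the q-value), fold ratio and −log10 p-value are per pooled peak. Depth by library was not used here. Fragment numbers recovered from fold and p were whole within 0.02 at 99.997% of peaks, and 2 were not. The deposited list of CTCF sites gave classes and 0 or 1 marks for overlap with public data, and its other columns were not used here. The summit offset is in bases.

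Genes were those of GENCODE vM1 on NCBIM37, the mm9 assembly, with 67112 autosomal starts of 21418 protein-coding genes. All 22 chromosome names of the list matched the assembly and 0 peaks reached past a chromosome end. Python 3.11.15, NumPy 2.4.6, pandas 2.3.3, SciPy 1.17.1 and Matplotlib 3.10.9 were used, and functions were tested on simulated data. With pooled lists no test between samples was possible, and shares carry 95% Wilson intervals for counting error only. Members and gene lists were chosen with earlier results of these data known. Named genes were the 10 with the most summits in the body, the most per 100 kb (at least 50 kb long), the strongest promoter and body summits, the most summits at starts and the strongest promoter summits without CTCF, the 10 longest without a summit, the 5 longest runs, and, from the 3 strongest of each list or any member of lists of at most 20, those printed, which are not all that the rule allows. In lists of over 20 members, further genes named were chosen after their values were seen. The 3 intergenic summits named are those farthest from a start among the strongest 10%. A symbol with several gene models counts once per model. List symbols not found in the annotation were C5, Hmgcs1, Tf, Adgre1 (held as Emr1, which is listed), Spi1 (held as Sfpi1), Kcnq1ot1, Nesp and Peg13, and Hdac8 is not autosomal.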

Additional observations from a re-analysis of the deposited data

Results flagged for a closer look

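Rad21 peaks outside the autosomes were not part of the comparisons above. There were 1179 peaks on chromosome X, 94 on chromosome Y and 5 on the mitochondrial genome. Chromosome X had 7.27 peaks per sequenced Mb, against 27.6 over the autosomes, and 26.5% of its summits lay within 1 kb of a start of a protein-coding gene. Chromosome Y had 34.8 peaks per sequenced Mb over 2.70 Mb, and 0 of its summits lay within 1 kb of such a start. The mice were male, so chromosomes X and Y were present in fewer copies than the autosomes. The part of this in the densities was not tested.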

How the results depend on the processing

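All values rest on 1 pooled list per factor, so no spread between animals can be given and no replicate could be left out. No paired analysis was possible because each list pools its libraries. The paper states that the 3 Rad21 and 4 CTCF libraries represent 4 male livers, with 1 CTCF library lacking a Rad21 match. With a score of at least 100, the promoter share was 26.1%, the body share 55.3%, genes with a promoter summit 45.6%, genes with none 27.4%, the promoter median score 269 and the Rad21 minus CTCF difference 3.59 points. With a fold of at least 5 these 6 values were 23.0%, 52.2%, 34.8%, 31.7%, 377 and 1.92. With genes of all types the first 4 were 25.2%, 59.9%, 38.2% and 35.1%, and the other two moved within their intervals. With 1 start per gene the promoter share was 19.1%, genes with a promoter summit 49.6% and the median 191. A window of 500 bp gave 19.7%, 49.7% and 193, and a window of 5 kb 36.1%, 64.6% and a difference of 1.21. Any base of the peak gave 24.8%, 59.6% in bodies and 54.6% of genes. Genes with none were 40.2% without flanks and 13.3% with 50 kb. By fold, another unit, the promoter median was 4.87. The 30000 strongest peaks of each factor gave a difference of 5.70. Alternatives chosen after seeing the data gave 22.0% and 52.5% for starts of coding transcripts, 56.5% in bodies without models that hold 3 or more other genes, and, for genes with 90% of windows at 1 place, 60.4% with a promoter summit and 14.6% with none. The Rad21 minus CTCF difference was above 0 in each setting that recomputed it. The other values recomputed, 8 in all, lay within the interval of the reported value.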

Other observations

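Some families outside the lists were chosen from the extremes after their values were seen, and their counts stand against 53.5% of all genes with a promoter summit and 23.2% with none in the body or within 10 kb. Of 25 genes with Prl names, prolactins that mostly act in the placenta, 24 had none in the body or within 10 kb. Of 27 kallikrein (Klk) genes, 18 had none, and 0 of them had a promoter summit. At the other end, 28 of 29 genes of the mediator complex (Med) and 25 of 26 with Tbc names, regulators of membrane traffic, had a promoter summit.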
